A study of Mus musculus with 10 samples.

Results

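Chemokines are small secreted or membrane-bound proteins that guide the movement of cells, and their receptors are membrane proteins that signal through G proteins. The genes described here were chosen by symbol alone, as names of CC, CXC, CX3C or XC chemokines, classical chemokine receptors or atypical receptors. The symbol had to be Ccl, Cxcl, Ccr, Cxcr, Ackr or Ccrl followed by a number only, or Cx3cl1, Xcl1 or Xcr1. Of 18539 genes named on the arrays, 54 met that rule, through 69 probes. They comprise 18 CC ligands, 12 CXC ligands, 2 ligands of the CX3C and C classes (Cx3cl1 and Xcl1), 10 CC receptors, 6 CXC receptors, the XC receptor Xcr1 and 5 atypical receptors. A further pair of genes that fit the rule in the name table, Ccl26 and Cxcl11, were not analysed here. Cx3cr1, the fractalkine receptor, has a symbol outside the rule and is described among the related genes.

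The 10 arrays each carried hemibrain RNA of a different male C57BL/6J mouse, labeled with Cy-5, beside another RNA labeled with Cy-3. Mice started their diet at 3 weeks of age, stayed on it for 20 weeks and were 5 months old at collection. No transgene or allele is named for these animals. The diet of each array is unsettled, since the labels enter the fish oil enriched diet (FD) for every Cy-5 sample while describing the same samples as controls, and the methods account for fewer arrays than the 10 described here, some from FD mice and some from mice on the standard lab diet (SD). The diets were therefore not compared. The sources also differ on the Cy-3 RNA, given as pooled SD hemibrain in the labels and as a commercial reference RNA in the methods. All 10 arrays were treated as a single group, numbered hemibrain 1 to hemibrain 10, and may hold animals of both diets.

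The Cy-5 channel carried the markers of brain tissue. All 6 neuron markers, 4 astrocyte markers and 4 oligodendrocyte markers had Cy-5 signal well above background throughout, and all were higher in Cy-5 than in Cy-3, with mean log2 ratios from 3.76 (Aldh1l1) to 10.29 (Slc1a2). The 4 fibroblast markers and the 4 proliferation markers were all lower in Cy-5, from -2.87 (Dcn) to -6.25 (Mki67) among those detected in both dyes throughout. These ratios go against a Cy-3 RNA made from hemibrain, and it is called the Cy-3 RNA below. A ratio therefore places the hemibrains against an RNA of unsettled origin, and a low ratio does not give a low level in brain.

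In the brain, Cx3cl1 is known as a ligand made by neurons whose receptor sits on microglia, and Cxcl12 with its receptor Cxcr4 as a pair that guides migrating neurons and blood-forming cells. Most other chemokines are known for bringing leukocytes into inflamed tissue, and many are induced by cytokines such as tumor necrosis factor and interferons. Atypical receptors bind chemokines without the usual G protein signaling, and several of them remove ligands from the surroundings. In RNA from a whole hemibrain, fewer cells of a type and less RNA per cell cannot be told apart.

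Few chemokine genes were detected in every hemibrain. A probe is called detected where the scanner software marked 0.5 or more of its spots as well above background, and the brightest probe stands for its gene. A probe that was not detected may still have had signal near the background, so the word says nothing of absence. In Cy-5, 15 of the 54 members (27.8%) were detected on all 10 arrays, beside 12163 of all 18539 genes (65.6%). By the software's weaker mark for positive and significant spots the 15 would be 25. The share of all genes by that mark is not given here, so the difference from all genes holds for the first mark only. Another 25 members were detected on some arrays and 14 (25.9%) on none, a state found in 9.78% of all genes. In Cy-3, 33 members (61.1%) were well above background on all arrays, beside 73.2% of all genes. Ligands and receptors were alike in this, with 9 of 32 ligands and 6 of 22 receptors measured in Cy-5 on every array.

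The array of hemibrain 8 stood apart in depth of signal. Its Cy-5 channel had 49.8% of probes detected and a median background-subtracted signal of 28.5, whereas the other 9 arrays had 68.2% to 76.9% and 60.0 to 171. It had 15 members detected in Cy-5, where the others had 24 to 37. Without it, 23 members (42.6%) were detected in Cy-5 throughout, beside 76.6% of all genes. Its ratios also stood apart, with a median over the members of -0.26, against -1.09 to -0.69 on the other arrays, and 15 members had their highest ratio there. Over all probes its log2 ratios were the narrowest, with an interquartile range of 1.37, against 1.63 to 1.87 on the other arrays. Lower members can thus stand nearer 0 there, and the share of all genes with their highest ratio on that array was not counted. The neuron markers deviated from their own medians by 1.12 on that array (next 0.20), the fibroblast markers by 0.50 and the proliferation markers by 0.45. Other lists were lower there, with the macrophage markers at -0.59 and the neutrophil markers at -0.37. The neuron marker Stmn2 also had its lowest ratio there, at 4.84. Among the members that it alone kept out of the count of 15 are Ccl6, Ccl7, Ccl24 and Cxcl16.

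**Figure D1:**
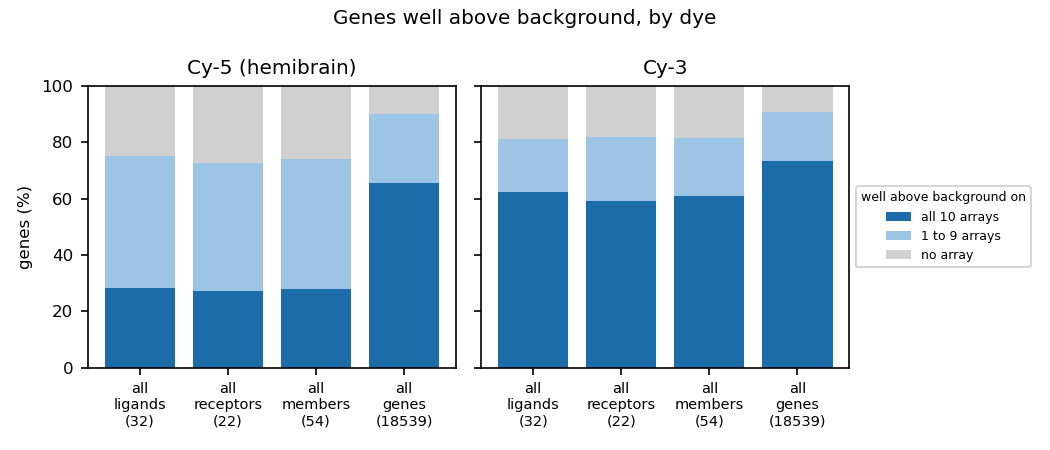
Share of genes (%) whose probe was detected on all 10 arrays, on 1 to 9 arrays or on no array, in Cy-5 and in Cy-3, for ligands, receptors, all members and all named genes (number of genes in brackets). In Cy-5 the full bar sections stand at 27.8% for the members and 65.6% for all genes.

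Against the Cy-3 RNA, 7 members were higher in the hemibrains and 25 were lower. A gene was called where limma's adjusted p, over all probes, was under 0.05 and the mean log2 ratio was at least 1 in size. Of all named genes, 25.5% were called higher and 19.8% lower by the same rule, so that the members had 13.0% higher and 46.3% lower. Every called member had all its arrays on the same side of 0. The number called lower was 21 with an offset of 50 added to both signals and nothing else changed, 24 with background-subtracted median signals kept at 0.5 or above, and 15 with these signals and the offset together, a setting called plain subtraction below. Of the 32 members called in either direction, 12, 7 and 22 had a fold over 1.5 times smaller under these settings, so the folds given here depend on the offset and on the signals used. Normexp, which fits the background of each dye, put the mean Cy-3 background at -463 on hemibrain 1, -410 on hemibrain 2 and -152 on hemibrain 7, against -17.4 to 6.82 on the other 7 arrays. The interquartile range of its log2 ratios was 0.026 to 0.45 on those 3 arrays and 0.72 to 0.92 on the others, so its fit was poor there. On the other 7 arrays it called 13 members lower. The median of the members' mean log2 ratios was -0.60, beside 0.13 for all genes. Without loess the medians were -0.73 and -0.0036, and with plain subtraction -0.22 and 0.049, which narrows the distance between them. The test leaves out the spread of the Cy-3 RNA, has no dye swap and is open to dye bias. Its p-values set a mean ratio against the spread between arrays, each of a different animal. Animal, labeling and a possible difference in diet cannot be told apart in that spread.

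**Figure D2:**
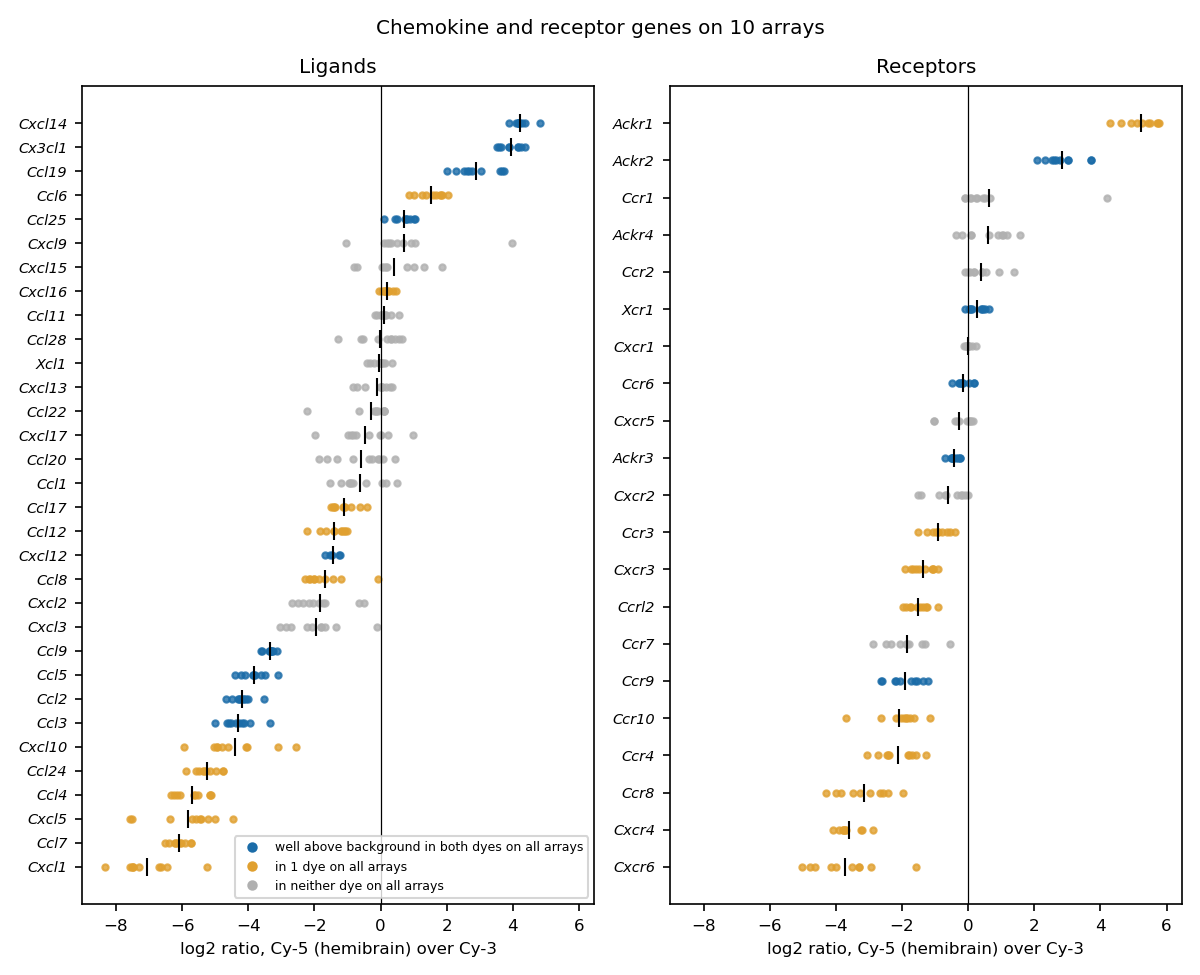
Log2 ratio, Cy-5 (hemibrain) over Cy-3, of 53 of the 54 members (ligands left, receptors right) on each of 10 arrays (points), with the mean as a black tick and colors for detection. The ratios run from -8.33 for Cxcl1 to 5.76 for Ackr1, and the highest mean among the ligands is that of Cxcl14, at 4.23.

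Of the 32 ligands, 4 were higher in the hemibrains and 16 lower. Cxcl14, a chemokine known from epithelia and from subsets of neurons, had log2 ratios with a lowest value of 3.89, a median of 4.18 and a highest of 4.81 over 10 arrays. Its mean of 4.23 ± 0.24 (SD, n = 10) is an 18.8-fold difference, with limma's adjusted p at 2.63e-13, with hemibrain 8 highest and hemibrain 1 lowest. Cx3cl1, the membrane-bound ligand fractalkine, lay between 3.53 and 4.38 with a median of 3.89 on the 9 arrays that gave a value, since its spots on hemibrain 8 carried an outlier flag. The mean, 3.94 ± 0.31 (SD, n = 9), is a 15.4-fold difference (limma, adjusted p = 1.18e-11), and hemibrains 1 and 5 had the lowest ratios. For Ccl19, a ligand of Ccr7 that draws T cells and dendritic cells into lymphoid tissue, the lowest, median and highest ratios were 2.0, 2.72 and 3.73. Hemibrains 4, 5 and 8 were high and hemibrain 6 low, which gave it the largest range, 1.73, of the members detected in both dyes throughout, and the mean of 2.89 passed the test (limma, adjusted p = 8.17e-09). The second probe of Ccl19 ran from 3.85 to 5.16 with a mean of 4.61, so the size and the range depend on the probe.

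Ccl6, a ligand of myeloid cells that is found in rodents, was the other ligand called higher. Its ratios ran from 0.86 to 2.04 with a median of 1.63, and the mean of 1.53 had an adjusted p of 9.47e-08 from limma. The mean was 0.79 with plain subtraction, short of the fold for a call. Ccl25, known for its part in the thymus and gut, was detected in both dyes throughout, with 0.11 as its lowest ratio, 0.76 as its median and 1.04 as its highest. Its mean of 0.70 was above 0 on all 9 arrays with a value but did not reach the fold for a call.

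The lower ligands included the lowest ratios of all members. Cxcl1, a ligand that attracts neutrophils, ranged from -8.33 to -5.23 with a median of -7.39, with hemibrain 5 highest and hemibrain 1 lowest, and was detected in Cy-5 on 4 of 10 arrays but in Cy-3 on all. The mean of -7.07 ± 0.85 (SD, n = 10) is 134-fold lower in the hemibrains, with an adjusted p of 2.78e-11 (limma). Cxcl5, which acts on the same receptor, had a lowest ratio of -7.58, a median of -5.52 and a highest of -4.47, and was also detected in Cy-5 on 4 arrays. The size of these ratios rests in part on Cy-5 signals that are near background on the other arrays. With plain subtraction the mean of Cxcl1 was -4.95 (30.9-fold) and that of Cxcl5 was -3.46.

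Among the monocyte-attracting CC ligands, Ccl7 ran from -6.53 to -5.72 with a median of -6.10, and hemibrain 5 was lowest. Its mean of -6.10 is 68.4-fold lower, but 28.5-fold with plain subtraction, and it was detected in Cy-5 on 9 arrays. Ccl2, the best known member of that group, was detected in both dyes throughout and lay between -4.67 and -3.53, with a median of -4.20. In fold terms its mean of -4.19 ± 0.31 (SD, n = 10) is 18.2-fold lower, with an adjusted p of 1.04e-12 from limma. Hemibrain 1 had the lowest ratio of Ccl2 and hemibrain 8 the highest.

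Ccl3 and Ccl4, inflammatory ligands made by activated macrophages and microglia, were both lower on all 10 arrays. For Ccl3 the lowest, median and highest ratios were -5.01, -4.32 and -3.35, and the mean of -4.30 is 19.7-fold lower (limma, adjusted p = 1.22e-11), or 13.1-fold with plain subtraction. Ccl4, detected in Cy-5 on 7 arrays, spanned -6.33 to -5.14 with a median of -5.63, and its mean was -3.88 with plain subtraction. Ccl5, a ligand known from T cells, ran from -4.41 to -3.11 with a median of -3.85, with hemibrain 4 highest, and its mean of -3.83 is 14.2-fold lower (limma, adjusted p = 7.91e-12).

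Ccl9, a myeloid ligand, varied little, with a range of 0.48, from -3.62 to -3.14 with a median of -3.33, and its mean was -3.36. Ccl24, an eotaxin that acts on Ccr3, ran from -5.89 to -4.76 with a median of -5.30, and its mean of -5.26 is 38.3-fold lower (limma, adjusted p = 4.59e-13), or 17.5-fold with plain subtraction. Cxcl12, the ligand of Cxcr4, gave a value on 5 arrays only with its brightest probe, the others carrying outlier flags, and these lay between -1.69 and -1.24. Its mean of -1.43 passed the test (limma, adjusted p = 1.21e-05), but its second probe gave -3.74 over 10 arrays, so that the direction is shared by both probes and the size is not.

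Of the 22 receptors, 3 were higher and 9 lower. Ackr1, the atypical receptor of red cells and venule endothelium, had ratios from 4.27 to 5.76 with a median of 5.35. Its mean of 5.24 ± 0.50 (SD, n = 10) is a 37.7-fold difference (limma, adjusted p = 5.12e-12), with Cy-3 detected on 9 arrays, and hemibrains 5 and 10 were lowest. The fold was 18.7 with plain subtraction. Ackr2, an atypical receptor that takes up inflammatory CC ligands, ranged from 2.08 to 3.71 with a median of 2.71, with hemibrains 2 and 5 highest, and its mean of 2.84 passed the test (limma, adjusted p = 3.22e-09). It was 1.87 with plain subtraction. Ackr3, which binds Cxcl12, lay just below 0 on all 10 arrays, between -0.70 and -0.25 with a median of -0.47, short of the fold for a call.

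Ccr9, a receptor of thymocytes and gut-homing T cells that binds Ccl25, was detected in both dyes throughout and lower, with -2.63 as its lowest ratio, -1.89 as its median and -1.21 as its highest. Its mean of -1.92 passed the test (limma, adjusted p = 8.37e-08) and was -1.26 with plain subtraction. Ccr6 and Xcr1, receptors of T cells and dendritic cells, stayed near 0 at -0.14 and 0.26, with ranges of -0.50 to 0.19 and -0.085 to 0.62. The second probe of Xcr1 was never detected in either dye, so the detection of Xcr1 depends on the probe.

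Cxcr4 and Cxcr6 are receptors called lower that were chosen after their values were seen. Cxcr4, the receptor of Cxcl12, lay between -4.10 and -2.88 with a median of -3.73, but its second probe had a mean of -1.99 where the brightest had -3.61, and the latter was -1.90 with plain subtraction. Cxcr6, a receptor of T cells and natural killer cells, was detected in Cy-3 on all arrays but never in Cy-5, so its own mean of -3.72 (limma, adjusted p = 9.77e-08) rests on signals near background and has only a bound. After loess and scaling of brightness between arrays, with the lowest Cy-5 signal among detected probes in place of its own, the bound was 4.26-fold lower in the hemibrains on the processed signals, untested and open to dye bias. It does not hold under every setting. The fold of Cxcr6 itself was 4.23 with the offset alone, 2.12 with plain subtraction and 1.99, short of a call, with normexp on 7 arrays. With background-subtracted median signals and no offset the fold of Cxcr6 was 6.33, above the bound. By the same rule, on the processed signals alone, Ccr7 was at least 1.20-fold and Cxcl2 at least 1.05-fold lower, with Cy-3 detected on 8 and 6 arrays, and Cxcl3 had no fold above 1. Ccr7, Cxcl2 and Cxcl3 were not called with plain subtraction.

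The other receptors called lower were Ccr8 at -3.15, Ccr4 at -2.12, Ccr10 at -2.08, Ccrl2 at -1.52 and Cxcr3 at -1.38. Ccr8 was detected in Cy-5 on 1 array, Ccr4 on 2 and Ccr10 on 3, so these values and their order rest on signals near background. The other ligands called lower were Cxcl10 at -4.41, Ccl8 at -1.68, Ccl12 at -1.41 and Ccl17 at -1.09. Of these 9 receptors and ligands, Cxcl10 kept its call with plain subtraction (-2.64), as did Ccr8 (-1.04), which lost it with normexp on 7 arrays (-0.95), and Ccr4, Ccr10, Ccrl2, Cxcr3, Ccl8, Ccl12 and Ccl17 lost it under both. Not called were Ccl20 at -0.59 and Cxcl15 at 0.40, detected in Cy-5 on 3 arrays each, and Cxcr5 at -0.28, Ccl28 at -0.0058 and Cxcr1 at 0.0058, whose signs changed with the processing. Ackr4, Ccl1, Ccl11, Cxcl13, Cxcl17, Ccr2, Cxcr2 and Xcl1 were detected in neither dye on any array, which makes 8 of 54 (14.8%), beside 6.58% of all genes. Of 15 members with a second probe, 12 had probe means within 1 of each other and 3 did not: Cxcl12, Cxcr4 and Ccl19, whose second probe gave 4.61 where the brightest gave 2.89. Close means near background say little of the probes. Both probes of Ccr2 (0.40 and -0.18) and of Cxcr2 (-0.60 and 0.25) were never detected in either dye, and they differed in sign. For Ccl25 the second probe gave -0.018, and for Cxcl16, a membrane-bound ligand of Cxcr6, the probes gave 0.19 and -0.63, so the direction of these small ratios depends on the probe, and that of Cxcl16 also on loess, without which it was -0.025.

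Many of the members share a chromosome, and those next to each other in the order of the members did not always share a direction. Distances between them, and other genes that lie between them, were not examined. On chromosome 11, 14 members were placed, of which 10 were lower and 1 higher, beside 19.5% lower among all genes placed there. Of the 10, 6 kept their call with plain subtraction, and Ccr7 was never detected in Cy-5. Ccl6, the higher one at 1.53 but not called with plain subtraction (0.79), stands between Ccl9 and Ccl3 in the order of the members, with means of -3.36 and -4.30. On chromosome 9, Ackr2 at 2.84 stands between Ccr8 and Ccr9 in that order, at -3.15 and -1.92. On chromosome 5, 6 of 9 members were lower and 0 higher, beside 20.6% lower among all genes there, and 4 of the 6 kept their call with plain subtraction, the others being Cxcl2 and Cxcl3, never detected in Cy-5.

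**Figure D3:**
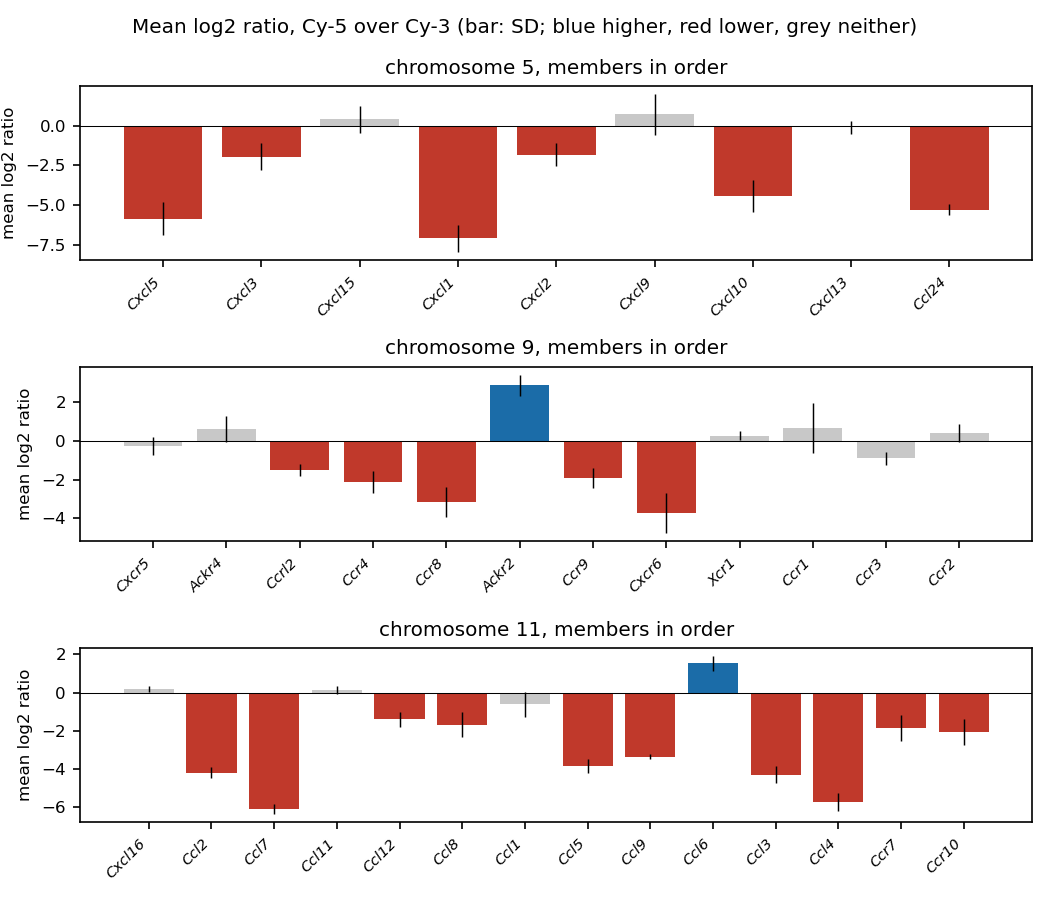
Mean log2 ratio, Cy-5 over Cy-3 (bars, with the SD over arrays as lines) for the members shown on chromosomes 5, 9 and 11, in the order of their starts and without distances. Blue bars are called higher, red lower and grey neither. Ccl6 stands at 1.53 (0.79 and not called with plain subtraction) between red bars of -3.36 and -4.30.

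The promoters of Cxcl1, Cxcl2, Cxcl3 and Cxcl10, lower members on chromosome 5 that are known to be induced by inflammatory signals, are shown because they share short motifs. The sequences come from RefSeq (GRCm38.p6), 250 bases before to 50 after the start, and 41 members matched 45 such promoters. Capitals mark matches to GGGANNTTCC, the shape of a binding motif of NF-kB, on either strand, which 482 of 32851 promoters (1.47%) and 6 of the 45 held. In Cxcl10 the first capitals mark GAAANNGAAA instead, a motif of interferon response elements, which 3.44% of all promoters and 3 of the 45 held. The promoters are at chr5:90890995-90891294 for Cxcl1, chr5:90903649-90903948 for Cxcl2 and chr5:90785851-90786150 for Cxcl3, all on the plus strand, and at chr5:92348840-92349139 on the minus strand for Cxcl10, each written along its gene.
Cxcl1: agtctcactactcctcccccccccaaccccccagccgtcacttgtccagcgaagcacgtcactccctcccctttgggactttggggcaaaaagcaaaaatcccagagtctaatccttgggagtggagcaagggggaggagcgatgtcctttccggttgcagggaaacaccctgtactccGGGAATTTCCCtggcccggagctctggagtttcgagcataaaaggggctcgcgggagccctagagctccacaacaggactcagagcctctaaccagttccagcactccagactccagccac
Cxcl2: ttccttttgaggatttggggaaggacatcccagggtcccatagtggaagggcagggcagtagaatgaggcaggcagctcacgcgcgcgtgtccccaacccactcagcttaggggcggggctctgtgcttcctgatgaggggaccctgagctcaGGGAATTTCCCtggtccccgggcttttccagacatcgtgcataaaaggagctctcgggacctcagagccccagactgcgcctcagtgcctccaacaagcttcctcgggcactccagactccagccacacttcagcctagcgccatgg
Cxcl3: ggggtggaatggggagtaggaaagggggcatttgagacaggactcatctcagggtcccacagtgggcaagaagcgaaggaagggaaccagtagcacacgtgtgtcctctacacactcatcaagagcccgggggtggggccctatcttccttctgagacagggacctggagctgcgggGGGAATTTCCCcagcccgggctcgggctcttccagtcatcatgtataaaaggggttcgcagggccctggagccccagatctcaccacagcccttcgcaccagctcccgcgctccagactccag
Cxcl10: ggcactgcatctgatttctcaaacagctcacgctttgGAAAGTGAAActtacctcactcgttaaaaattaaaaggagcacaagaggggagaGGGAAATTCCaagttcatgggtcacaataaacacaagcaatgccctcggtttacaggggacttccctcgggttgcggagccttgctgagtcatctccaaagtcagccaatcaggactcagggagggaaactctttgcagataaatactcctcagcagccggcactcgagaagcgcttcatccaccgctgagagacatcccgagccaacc
In the first 3 promoters the match on the plus strand overlaps a match on the other strand by all but 1 base, which makes the capitals a run of 11. Counted from the start, its first base is at -71 in Cxcl1, -97 in Cxcl2 and -73 in Cxcl3. Cxcl2 and Cxcl3 had means of -1.82 and -1.96, on probes never detected in Cy-5. Ccl1 and Ccr3, at -0.61 and -0.90, also held the first motif and were not called, although Ccr3 was called lower without loess (-1.12), and the second motif was found in the higher ligands Ccl19 and Cxcl14. A match describes letters in this window and is not a measured site.

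Genes around the chemokine system were described in lists chosen beside the members. Of 51 related genes 48 were found, with 11 higher, 25 lower and 12 not called, beside 25.5% higher and 19.8% lower among all genes. With plain subtraction 11 were higher and 21 lower. Cx3cr1, the receptor of Cx3cl1, had a mean of 3.78 and was detected in both dyes throughout, so both partners of this pair were high in ratio. Among 7 chemokine genes whose symbols fall outside the rule, Ccl27a was highest at 3.98 and Pf4, a platelet chemokine, lowest at -4.58. Ccl27a and Ccl21a, at 3.11, have near-identical copies, and their probes cannot tell the copies apart. Of 23 signaling genes found, 7 were higher and 9 lower, from -5.25 for Rgs1, a brake on G protein signaling in lymphocytes that was never detected in Cy-5, to 4.53 for Grk3, a receptor kinase. Of 7 inducers, 5 were lower and none higher. Their means ran from Tnf at -2.31 to Ifng at -0.45, which was not called and was never detected in Cy-5. Among 7 adhesion genes 5 were lower. The means of that list ran from Itgb2 at -2.47 to Sele at -0.11, which was not called and was never detected in either dye. All 4 genes of ligand processing were lower, from Mmp9 at -4.28 to Adam17, Dpp4 and Mmp2, of which Dpp4 was highest at -2.20.

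Markers of blood and immune cells stand beside these ratios. Among microglia markers 5 of 8 were higher, and all 8 were detected in Cy-5 throughout. Those detected in both dyes throughout ran from Trem2 at -0.24 to Cx3cr1 at 3.78, whereas P2ry12 was never detected in Cy-3. Macrophage markers were split, with 2 of 4 higher and 2 lower, from Lyz2 at -2.49 to Cd163 at 3.98. T cell markers had 3 of 6 lower and none higher (Cd3g -4.60, Cd4 0.26), B cell markers 2 of 4 lower (Ms4a1 -6.70, Cd79a 0.33) and neutrophil markers 1 of 5 lower and 1 higher (S100a8 -5.68, S100a9 3.04). Of 5 endothelium markers 4 were higher (Pecam1 -0.10, Cldn5 5.53), of 4 choroid plexus markers 2 (Aqp1 -2.70, Ttr 6.67), of 3 platelet markers 1 (Itga2b -1.40, Gp1bb 2.47) and both erythroid markers found (Hba-a1 and Alas2, each 4.29). Several of these values rest on signals near background, since Cd163 was detected in Cy-3 on 1 array and S100a9 on 5, S100a8 in Cy-5 on 1, Cd3g on 3, Itga2b on 4 and Ms4a1 on 5. With plain subtraction 1 macrophage marker was higher and 2 T cell markers were lower. The part of blood and immune cells in the ratios of the chemokine genes was not tested.

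The spread between the 10 hemibrains was described for members with signal in both channels. Over the 14 members detected in both dyes throughout, the median SD of the log2 ratio was 0.30, from 0.14 for Ackr3 to 0.61 for Ccl19, beside a median of 0.25 over 11372 genes that passed the same filter. The largest ranges were those of Ccl19, Ccl3 (1.66), Ackr2 (1.63), Ccr9 (1.43) and Ccl5 (1.30). No test of this difference was made, and the members were chosen by family, not by level.

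On hemibrain 4, 11 members had their highest ratio, fewer than the 15 on hemibrain 8, and 4 of the 11 are described here, chosen after their values were seen. The share of all genes with their highest ratio on either array was not counted, so the 11 cannot be called particular to the members. Cxcl9, an interferon-induced ligand of Cxcr3, had a ratio of 3.97 there, against -1.03 to 1.05 on the other 9 arrays. Ccr1, a receptor of myeloid cells, had 4.20 there and -0.088 to 0.67 elsewhere, and was detected in Cy-5 on that array alone. Cxcl10, also induced by interferons, was at -2.55 against -5.93 to -3.11, and Ccl8, a monocyte ligand, at -0.072 against -2.30 to -1.18. Cxcl9 and Ccr1 were not called over the 10 arrays, at means of 0.69 and 0.63 (limma, adjusted p = 0.0977 and 0.128).

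The signals behind these ratios were weak. The background-subtracted Cy-5 signal of Cxcl9 on hemibrain 4 was 27.4, below the 29.4 of hemibrain 6, where the ratio was 0.49, and that of Ccr1 was 22.1. Neither gene was detected in Cy-3. With plain subtraction, hemibrain 4 had the highest ratio for Cxcl9 (0.59), Ccr1 (0.58) and Ccl8 (0.0019) and the 2nd for Cxcl10. With the same signals and no offset it was 2nd for Ccr1, at 1.82 where hemibrain 2 had 2.24, and the mean of Ccr1 was then called, at 1.09. Without that array the means were 0.33 for Cxcl9, 0.23 for Ccr1, -4.61 for Cxcl10 and -1.86 for Ccl8. The endothelium markers were also high on hemibrain 4, where 4 of 5 had their highest ratio and the median deviation of the list from its genes' own medians was 0.69, the next highest array standing at 0.45. Other lists were also raised there but more so on another array. The choroid plexus list deviated by 0.44 (0.49 on hemibrain 2), the erythroid list by 0.24 and the neuron list by 0.20 (0.57 and 1.12 on hemibrain 8), and the oligodendrocyte list by 0.22 (0.33 on hemibrain 3). The macrophage list deviated by 0.17 (0.35 on hemibrain 6), with 2 of its 4 genes highest on hemibrain 4, the microglia list by 0.11 and the T cell list by 0.016 (0.20 and 0.23 on hemibrain 2). The part of any of these cells was not tested.

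**Figure D4:**
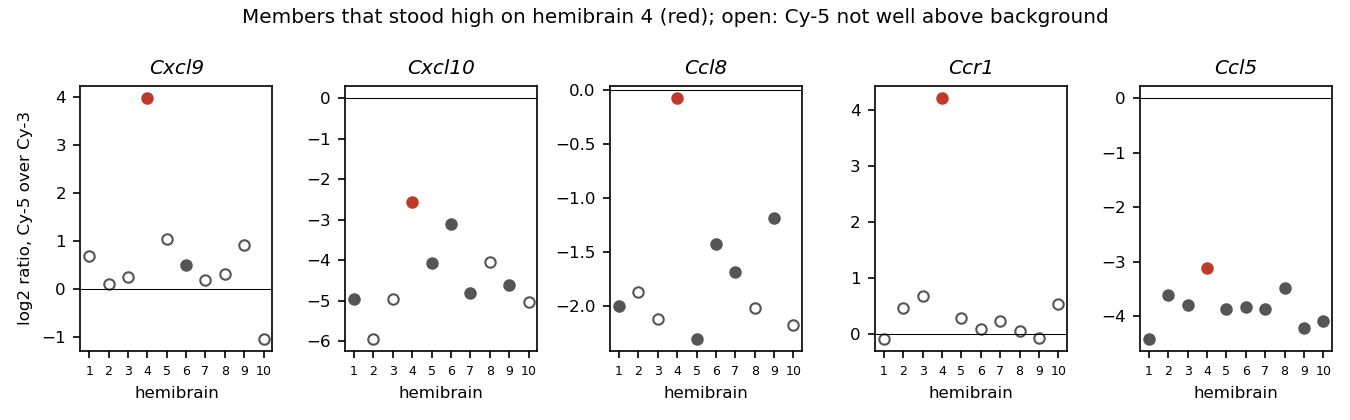
Log2 ratio, Cy-5 over Cy-3, on each array (horizontal axis, hemibrain number) for Cxcl9, Cxcl10, Ccl8, Ccr1 and Ccl5, with hemibrain 4 in red and open circles where the probe was not detected in Cy-5. Hemibrain 4 is the highest point in each panel, at 3.97 for Cxcl9 and 4.20 for Ccr1. In background-subtracted Cy-5 signal it was highest for Ccr1 alone.

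Between slides, no member passed the test. The arrays lay on 4 slides, and slide 2 and slide 3 held 4 arrays each, with different animals of unsettled diet, so slide, labeling and animal cannot be told apart. Of 53 members tested with limma, 0 were called at an adjusted p under 0.05, beside 0.0706% of all genes. At an unadjusted p under 0.05 there were 11 members, beside 7.92% of all genes. That count was not stable, at 2 with plain subtraction, 7 with the offset alone, 5 without hemibrain 7 and 7 without hemibrain 2, 6 or 9. Of these 11 members, 3 were detected in Cy-5 throughout and 3 in neither dye. The values of the slides did not overlap for 6 members, beside 6.04% of all genes.

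Ccr9 was among these, at -2.63 to -2.07 on slide 2 and -1.62 to -1.21 on slide 3, a difference of 0.84 (limma, adjusted p = 0.131). Ackr1 lay higher on slide 3, at 5.49 to 5.76 against 4.27 to 5.26, with an adjusted p of 0.240 from limma. Ccr1, Ccr2 and Cxcr5 also had no overlap, each detected in Cy-5 on at most 1 array. Of the 8 microglia markers 0 were called between slides by limma, and Cx3cr1 differed by -0.45 at an unadjusted p of 0.0475. Tnf, an inducer of many chemokines, differed by 1.25 at limma's unadjusted p of 0.00019 and was not called either.

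**Figure D5:**
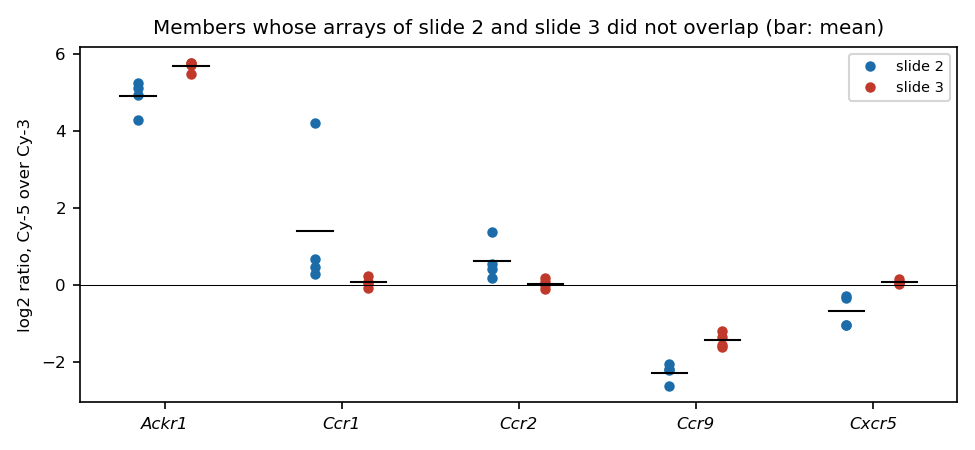
Log2 ratio, Cy-5 over Cy-3, on the 4 arrays of slide 2 (blue) and the 4 of slide 3 (red), with means as bars, for 5 members whose arrays did not overlap. Ccr9 (-1.62 to -1.21 against -2.63 to -2.07) and Ackr1 are higher on slide 3.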

How the data were processed

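The authors deposited scanner output of the Feature Extraction program (10.10.1.1) for 10 arrays with hemibrain RNA in the Cy-5 channel. The deposited signals are linear intensity values (median, background, background-subtracted, processed), the deposited log ratio is a log10 value, and deposited flags mark spots above background, saturated or outlying. The authors' deposited table holds log2 ratios, with a correlation of at least 0.997 with the scanner's ratio and column medians of -0.05 to 0.10.

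Processed signals gave log2 Cy-5/Cy-3 after loess on each array (span 0.3), with control and outlier spots left out and the spots of a probe averaged. Accessions named 27198 of 41174 probes (66.1%) by assembly GRCm38.p6. No spot was saturated. Ratios were tested against 0, and slide 3 against slide 2, with limma 3.58.1 in R 4.3.3 and Benjamini-Hochberg adjustment over all probes, and both fits were tested on simulated data. Python 3.11.15, numpy 2.4.6, pandas 2.3.3 and matplotlib 3.10.9 made tables and plots. The number of arrays limits the precision.

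Named members are those detected in Cy-5 throughout, the 5 highest and 5 lowest means among members detected in a dye throughout, and the 5 largest ranges. All other members named, and genes singled out within lists, were chosen after seeing their values. The members and lists were chosen with earlier results of these data known. Alternatives were no loess, median centring, normexp, plain subtraction, the authors' table, a filter on dim probes, the slide as a random block, a fold of 1.5, other probes of a gene, another flag and arrays left out. Added after seeing the data were leaving hemibrain 4 out of the ratio test, the offset of 50 alone, subtraction without offset (floor 0.5), and normexp without the 3 arrays whose fitted background was under -100 in a dye. Normexp and subtraction used median signals, and mean signals were not used here. A further member is counted but not reported singly here.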

Additional observations from a re-analysis of the deposited data

Results flagged for a closer look

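Of 57 sets of values over the arrays that were examined for a sample far from the others, 6 had one, by a rule meant to flag about 1 in 20. The sets share arrays and some rest on signals near background, so that rate need not hold here. The 6 are therefore not shown to be more than chance gives. Cxcl9 at 3.97 and Ccr1 at 4.20 on hemibrain 4 stood far above the next values of 1.05 and 0.67, and Ccl8 at -0.072 on the same array stood above -1.18. Cxcl14 at 4.81 on hemibrain 8 was above the next value of 4.37, on the array where 15 members and the neuron markers as a list were also highest. Ccl22, a ligand of Ccr4, had -2.23 on hemibrain 7 where the next value was -0.64, and was never detected in Cy-5 and in Cy-3 on 1 array. The number of members detected in Cy-3 was 33 on hemibrain 8, against 37 to 41 on the others.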

How the results depend on the processing

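For 46 members described singly, 586 comparisons with another setting left 523 with the same direction and side of the threshold. Another 43 were no longer called, all under normexp, plain subtraction (floor 0.5, offset 50), the offset alone or subtraction without offset. Ccr3 was called without loess, with median centring and in the authors' table, and Ccr1 with subtraction without offset. Sign changes, none past the test, were those of Cxcl16 (-0.025 without loess, -0.025 in the authors' table, -0.020 with median centring), Ccl28 (0.021 with normexp, 0.028 with normexp on 7 arrays, 0.031 with plain subtraction, 0.0078 with the offset alone, 0.057 with subtraction without offset, 0.0044 with the slide as a block, -0.028 to 0.060 with an array left out), Ccl22 (0.020 with normexp on 7 arrays, 0.031 without offset), Cxcr5 (0.10 without offset) and Cxcr1 (-0.017 without loess, -0.0025 with normexp on 7 arrays). Members called lower went from 25 to 12 with normexp, 13 on its 7 arrays and 15 with plain subtraction, and all probes called lower from 8293 to 3906, 4712 and 5006. Probes called higher went from 9374 to 5212 with normexp and 6121 on 7 arrays. Normexp fitted poorly on hemibrains 1, 2 and 7, so its values over 10 arrays say little of the members. Members detected in Cy-5 throughout went from 15 to 25 with the positive and significant flag, with no share of all genes beside it, and to 23 without hemibrain 8.

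Between slides, limma called 29 probes, against 0 with normexp, with or without hemibrains 2 and 7, 0 with the offset alone, 1 with plain subtraction, 1 without offset and 97 among probes detected in a dye throughout, and 0 to 8 with each array left out. At an unadjusted p under 0.05 the counts were 4033 as reported, 1169 with normexp, 2395 with plain subtraction, 1721 among those probes and 3159 to 4984 with an array left out. The cause was not tested. No member was called between slides by limma under any setting, with 0 to 11 members at an unadjusted p under 0.05. No paired analysis was possible because all arrays form 1 group. Signal over background limits what can be said of the 39 members not detected in Cy-5 throughout.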

Other observations

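Genes known to be induced by interferons or to present antigen were looked up after the high ratios on hemibrain 4 were seen, so their choice is not independent. Of 18 such genes 10 had their highest ratio on that array, and the median deviation of the list from its genes' own medians was 0.46 there, against 0.058 on the next array. The share of all genes with their highest ratio on that array was not counted. By the rule for calls, 19.8% of all genes were lower and 25.5% higher over all arrays. Of the 18 genes, 14 were lower in the hemibrains than in the Cy-3 RNA. Only 1, H2-Aa, was higher, with a mean of 1.68 and Cy-3 detected on 4 arrays. With plain subtraction 13 were lower and 0 higher. Isg15, a ubiquitin-like protein induced by interferons, had a mean of -2.90, and B2m, the light chain of class I molecules, -3.63.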
